A study of Mus musculus with 15 samples.

Results

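The genes described here are those of the mouse major histocompatibility complex (MHC) and of the machinery that fills its proteins with peptide, followed in white adipocytes after 0 days, 1 day or 12 days of culture at 31°C. They were taken by name from the table of gene counts. All 32 rows whose symbol begins with H2-, the name of the mouse MHC, were used, together with B2m, Tap1, Tap2, Tapbp, Tapbpl, Psmb8, Psmb9, Psmb10, Nlrc5, Erap1, Ciita and Cd74. This gave 44 genes of the 18804 in the table. Counts were high enough for a test in 31 of them, whereas 13 had too few (H2-Aa, H2-Bl, H2-DMb2, H2-M1, H2-M10.2, H2-M10.5, H2-M2, H2-M5, H2-M9, H2-Oa, H2-Q7, H2-T3 and Ciita), with at most 14 counts in any library.

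RNA-seq was performed on adipocytes differentiated in culture from mesenchymal stem cells (MSCs) of C57BL/6J mice, which the study's methods describe as primary cells isolated from ears. Sex and age are not given in the sources used here. Every culture, controls included, received methylisobutylxanthine, dexamethasone, insulin and a thiazolidinedione, named in the labels as troglitazone, and every culture was harvested on day 16 of differentiation. The day 0 group (5 libraries) stayed at 37°C throughout. The day 1 group (5 libraries) was moved from 37°C to 31°C on day 15, and the day 12 group (5 libraries) on day 4. The time spent at 31°C and the stage of differentiation at the move therefore cannot be told apart. The labels do not say whether libraries came from separate mice or dishes, so p-values measure the spread between these libraries, which may be technical.

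MHC class I proteins are found on nearly all nucleated cells, where a heavy chain and the light chain β2-microglobulin (B2m) display short peptides from inside the cell to CD8+ T cells. The peptides are cut by the proteasome, in part by the interferon-inducible immunoproteasome, carried into the endoplasmic reticulum by the transporter TAP, trimmed there and loaded with the help of tapasin. Class II proteins show peptides from endosomes to CD4+ T cells and are made mainly by professional antigen presenting cells. Interferon gamma, acting in part through Irf1, raises both routes, the first with the transactivator Nlrc5 and the second with Ciita.

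Total counts ran from 64648178 to 133270973 per library. Levels are given as CPM, the count normalised to library size with TMM scaling. Where a library had no count, the level could still be as high as 0.0428 CPM in the shallowest, a limit for counting error only. Of 10 adipocyte markers, 9 were over 1 CPM on average in each group, and their summed level was 4751 to 5444 CPM at day 0, 5837 to 6519 CPM at day 1 and 5292 to 5890 CPM at day 12. Lpl was the largest part of the sum in each group, followed by Adipoq at day 0 and by Fabp4 at days 1 and 12. At day 12 Fabp4 (0.97), Cd36 (0.63) and Retn (1.75) were called higher and Adipoq (-1.24), Cidec (-1.59) and Pparg (-0.59) lower. Markers of fibroblasts and progenitors were also abundant, at 17479 to 17711 CPM, 15576 to 16151 CPM and 12685 to 13324 CPM. The 14 markers of blood cells in the table summed to 7.68 to 10.4 CPM, 10.9 to 14.2 CPM and 7.46 to 8.34 CPM, mostly from Cd68. Ptprc, the pan-leukocyte gene, had at most 7 counts in any library, and Cd3e, of T cells, had none at day 12. At day 12 the blood cell markers Csf1r (1.47) and Lyz2 (1.07) were called higher, at means of 0.562 and 1.96 CPM. Csf1r was also called higher at day 1 (2.03), and Cd68 was not called against day 0 at either time. The 7 endothelial markers summed to at most 1.83 CPM. The part of these other cells in the results below was not tested. In bulk RNA, fewer cells of a type and less RNA per cell cannot be told apart.

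Adipocytes held at 31°C for 12 days contained far less class I RNA than controls, whereas after 1 day most of the class I route was little changed. A gene was called higher or lower at a Benjamini-Hochberg adjusted p under 0.05 in edgeR's quasi-likelihood test, together with a fold change over 1.5. At day 12, 22 of the 31 tested genes were called lower than at day 0 and 0 higher, where 16.2% of all genes tested were called lower and 13.0% higher. At an unadjusted p under 0.05, 1 was higher (H2-Ke2) and 26 were lower in edgeR, and DESeq2 called 0 higher and 24 lower of the 39 it tested. At day 1, 5 of the 31 were called lower (H2-K2, H2-T22, H2-T24, H2-Eb1 and Psmb9) against 13.4% of all genes, and 1 was called higher (H2-Q4) against 7.71%. Between the cool groups, 20 genes were called lower at day 12 than at day 1, against 8.53% of all genes, and 1 higher (Cd74), against 10.6%. The median log2 fold change over the 31 genes was -0.19 at day 1 and -1.36 at day 12, beside -0.01 and 0.01 over all 14293 genes tested. Other scalings raised the median of all genes at day 12, by total counts to 0.21 and by Hprt and Tbp to 0.27, with 2982 and 3563 genes called higher and 1668 and 1509 lower, beside 1852 and 2320 with TMM. Of the 31 genes, 20 and 19 were then called lower and 1 and 2 higher. In 25 of the 31 genes every day 12 library was below every day 0 library, as in 31.7% of all genes tested. This held for 21 of the 22 called lower (not H2-Q1), close to the 92.1% among all genes called lower. Both 31°C groups are set against the same day 0 libraries. Library numbers in the labels fall into 2 series, and within the 11 libraries of the larger one 21 of the 31 genes were called lower at day 12 and 5 at day 1, while the other 4 libraries were too few per group to compare.

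**Figure D1:**
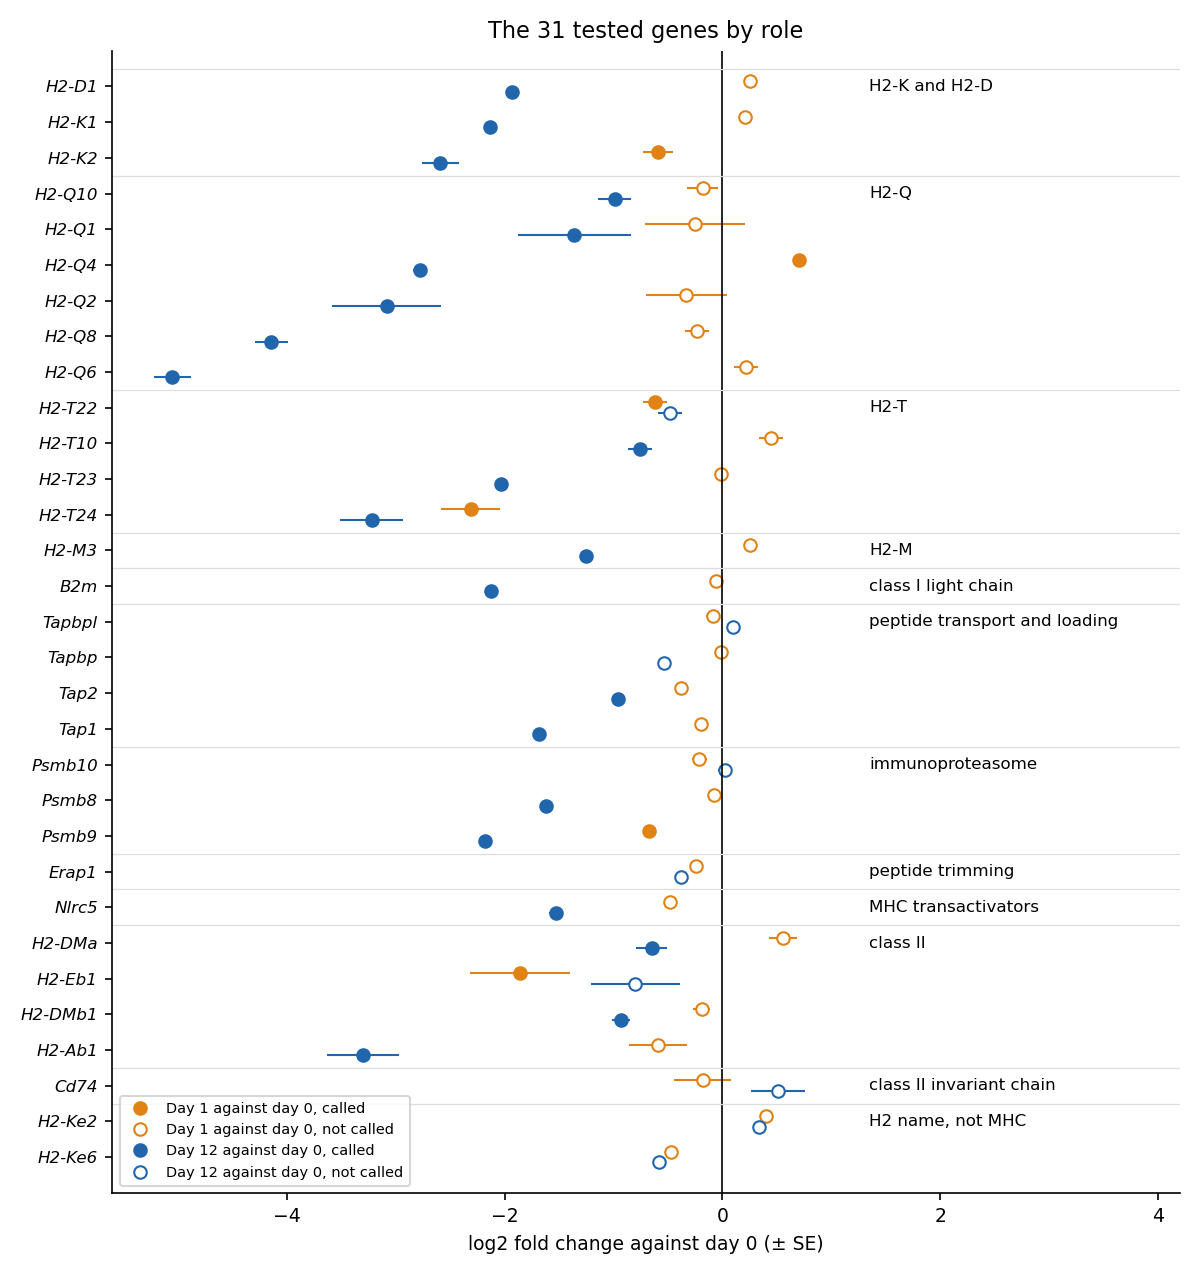
Log2 fold change against day 0 (horizontal axis, bars ± SE) for each of the 31 tested genes, grouped by role, at day 1 in orange and day 12 in blue; filled points were called. Blue points lie far to the left for most class I genes, down to -5.05 for H2-Q6, while orange points lie between -0.67 and 0.70 except for H2-T24 and H2-Eb1.

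Without H2-Ke2 and H2-Ke6, which are not MHC genes, 22 of 29 were called lower at day 12, with a median of -1.53. By timing, 18 of the 31 genes were called lower at day 12 but not at day 1, and 3 (H2-K2, H2-T24 and Psmb9) at both times. H2-Q4 was called higher at day 1 and lower at day 12. H2-T22 and H2-Eb1 were called lower at day 1 but not at day 12. The other 7 (Tapbp, Tapbpl, Psmb10, Erap1, Cd74, H2-Ke2 and H2-Ke6) were called at neither time. Summed over all 44 genes, these RNAs made up 0.731% to 0.818% of scaled counts at day 0, 0.785% to 0.828% at day 1 and 0.192% to 0.229% at day 12.

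H2-K1 and H2-D1 encode the classical class I heavy chains K and D. H2-K1 stood at 1301, 1169, 1231, 1313 and 1273 CPM in the day 0 libraries, at 1468, 1413, 1448, 1448 and 1511 CPM at day 1, and at 271, 261, 299, 302 and 299 CPM at day 12. The 3 groups did not overlap, with day 1 highest and day 12 lowest. The log2 fold change was 0.21 ± 0.038 (SE) at day 1, with an adjusted p of 2.47e-05 in edgeR but under the 1.5-fold limit, and -2.13 ± 0.040 at day 12 (adjusted p = 4.17e-23), a level 4.39-fold lower than at day 0.

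H2-D1 stood at 1567, 1389, 1470, 1583 and 1530 CPM at day 0, at 1833, 1744, 1767, 1762 and 1837 CPM at day 1, and at 366, 376, 416, 418 and 402 CPM at day 12. Its groups took the same order without overlap. Day 1 gave 0.25 ± 0.038 on the log2 scale (adjusted p = 3.00e-06, not called), and day 12 gave -1.93 ± 0.039 (adjusted p = 1.78e-22), which is 3.81-fold lower. H2-K1 fell further than H2-D1. Within a library, which removes any effect of scaling, there were 0.834 ± 0.00524 (SD, n = 5) H2-K1 counts for each H2-D1 count at day 0, 0.815 ± 0.00930 at day 1 and 0.724 ± 0.0194 at day 12. The day 12 ratio differed from that of day 0 with p = 0.00794 in an exact two-sided permutation test, the smallest p that 5 libraries against 5 can give, and 0.0085 after adjustment over the 15 ratio tests that were run.

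B2m encodes the light chain that every class I heavy chain needs to reach the cell surface. The study averaged it with other reference genes in 1 short-term qPCR experiment on Scd1, and its other qPCR panels name reference genes without B2m. It was the most abundant of the 44 genes per length, at 4320 CPM per kilobase of exon at day 0, ahead of H2-D1 at 585, H2-K1 at 428, Tapbp at 100 and H2-T23 at 84.8. It stood at 3708, 3511, 3520, 3968 and 3887 CPM at day 0, at 3659, 3419, 3606, 3539 and 3629 CPM at day 1, and at 720, 827, 944, 942 and 841 CPM at day 12. Days 0 and 1 overlapped and day 12 lay far below both. On the log2 scale B2m was at -0.06 ± 0.052 after 1 day (adjusted p = 0.319 in edgeR) and at -2.12 ± 0.054 at day 12 (adjusted p = 1.60e-20), 4.35-fold lower.

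Heavy and light chain RNA did not move in step at day 1. The summed heavy chains of class I were 3186 ± 157 CPM (SD, n = 5) at day 0, 3745 ± 86.1 CPM at day 1 and 777 ± 51.1 CPM at day 12. For each heavy chain count there were 1.17 ± 0.0379 B2m counts at day 0, 0.953 ± 0.0135 at day 1 and 1.10 ± 0.0725 at day 12. The ratio was lower at day 1 than at day 0 (exact permutation test, p = 0.00794, adjusted p = 0.0085), whereas day 12 overlapped day 0 (p = 0.111, adjusted p = 0.111).

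**Figure D2:**
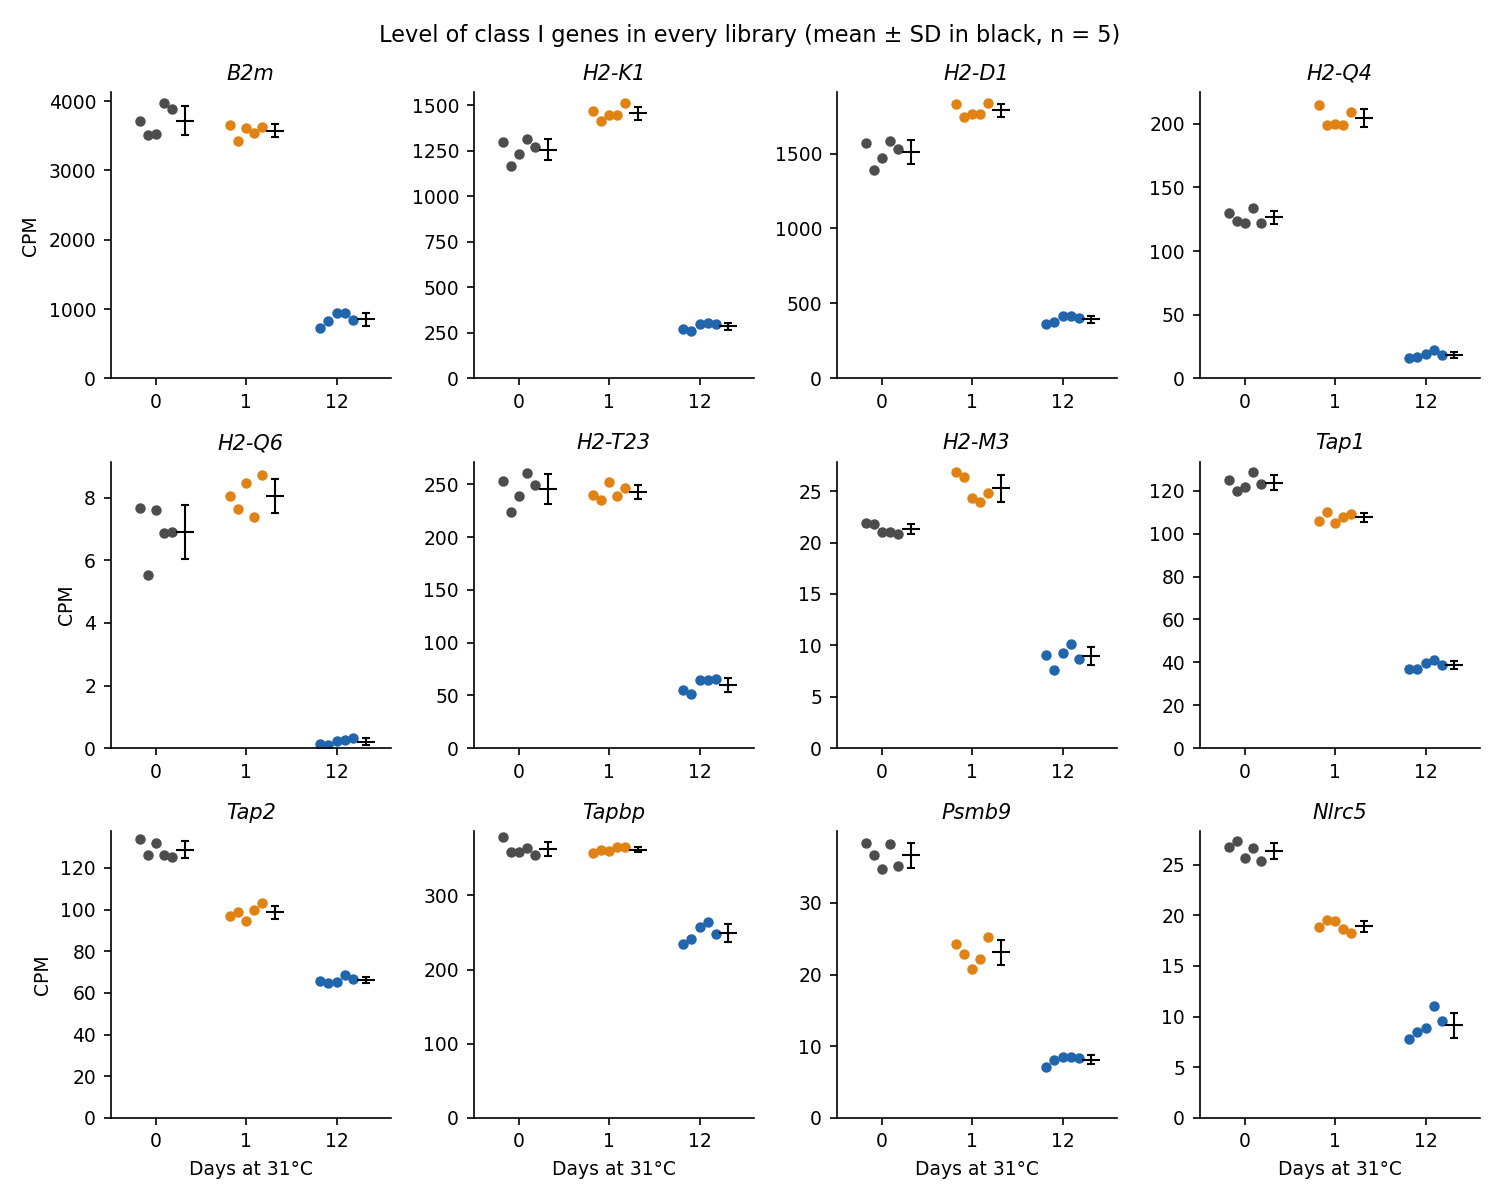
CPM (vertical axes, linear from 0) in each of the 15 libraries by days at 31°C for 12 genes of the class I route, with the mean and SD of each group (n = 5) in black. The day 12 libraries sit below all others in each of the 12 panels, H2-Q4 peaks at day 1, and Tapbp differs least.

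The 5 promoters below belong to the light chain, a classical heavy chain and 3 nonclassical heavy chains, all called lower at day 12, and are shown because class I promoters carry known control elements. Each line gives 186 bases, from base 200 to base 15 before the transcript start, 5′ to 3′, from RefSeq on GRCm38.p6, and such an entry was found for 31 of the 44 genes. Capitals mark matches, on either strand, to the interferon response core in its forms GAAANNGAA and GAANNGAAA, the gamma-activated site core TTCNNNGAA, the NF-kB-like site GGANTTCC, TGACG, the core of the cAMP response element, and the CCAAT box.

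B2m, chr2:122147487-122147672, plus strand: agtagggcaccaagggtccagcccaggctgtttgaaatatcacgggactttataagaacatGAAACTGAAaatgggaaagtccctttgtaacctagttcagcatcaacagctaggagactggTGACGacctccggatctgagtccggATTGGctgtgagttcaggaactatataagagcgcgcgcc

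H2-K1, chr17:34000348-34000533, minus strand: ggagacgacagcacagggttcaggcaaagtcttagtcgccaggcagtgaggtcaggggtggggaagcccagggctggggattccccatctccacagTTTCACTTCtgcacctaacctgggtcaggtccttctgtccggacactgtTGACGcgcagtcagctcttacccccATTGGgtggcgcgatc

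H2-M3, chr17:37270034-37270219, plus strand: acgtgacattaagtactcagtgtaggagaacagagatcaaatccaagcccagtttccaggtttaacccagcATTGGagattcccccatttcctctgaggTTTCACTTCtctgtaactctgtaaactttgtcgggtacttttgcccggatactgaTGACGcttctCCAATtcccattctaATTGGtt

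H2-Q4, chr17:35379417-35379602, plus strand: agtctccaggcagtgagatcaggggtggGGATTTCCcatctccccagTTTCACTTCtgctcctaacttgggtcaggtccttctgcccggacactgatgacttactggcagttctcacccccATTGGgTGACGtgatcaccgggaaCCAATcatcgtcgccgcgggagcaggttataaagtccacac

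H2-Q6, chr17:35424650-35424835, plus strand: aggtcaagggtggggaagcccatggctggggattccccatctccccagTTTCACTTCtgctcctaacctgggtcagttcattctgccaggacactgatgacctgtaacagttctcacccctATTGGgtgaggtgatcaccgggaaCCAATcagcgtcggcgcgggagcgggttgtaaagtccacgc

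Each of these 5 holds 1 interferon response core. GAAANNGAA was found in 4 of the 31 promoters when searched from 250 bases before to 50 after the start, beside 8.57% of 27025 promoters of the same length, and GAANNGAAA in 8, beside 7.56%. TTCNNNGAA was found in 3 (8.47% of all), GGANTTCC in 3 (4.84%), TGACG in 12 (21%) and CCAAT in 24 (37.9%). In B2m, H2-K1 and H2-M3 a TGACG starts 25 bases before a CCAAT, and a pair 20 to 30 bases apart was found in 7 of the 31 promoters and in 0.866% of all, a spacing chosen after these sequences were seen. TGACG and CCAAT are read by the factors that Nlrc5 and Ciita join. H2-Q4 has both, in another spacing, and H2-Q6 has CCAAT only. H2 promoters descend from common ancestors, so their matches are not independent of one another. A match is a description of the letters and not a measured site.

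The H2-Q genes, nonclassical heavy chains of the Qa region, showed the widest swings. H2-Q4 made up 87.5% of H2-Q counts at day 0. It stood at 130, 124, 122, 134 and 122 CPM at day 0, at 215, 199, 200, 199 and 209 CPM at day 1, and at 16.1, 16.7, 18.9, 22.2 and 18.2 CPM at day 12. Every day 1 library was above, and every day 12 library below, the controls. H2-Q4 rose 1.62-fold by day 1 (log2 fold change 0.70 ± 0.051, adjusted p = 1.04e-11) and was 6.87-fold lower by day 12 (-2.78 ± 0.057, adjusted p = 1.96e-22), an 11.1-fold drop from day 1 to day 12. It was the only one of the 31 genes called higher at day 1. The antisense gene Gm11131 overlaps 19.1% of its exon bases, and the counting is not stated to use strand.

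H2-Q6 showed the largest change of all 31 genes. It stood at 7.68, 5.52, 7.60, 6.87 and 6.90 CPM at day 0, at 8.07, 7.64, 8.46, 7.39 and 8.72 CPM at day 1, and at 0.120, 0.0883, 0.243, 0.257 and 0.331 CPM at day 12. Day 0 and day 1 overlapped, and day 12 was close to the floor of detection with 7 to 32 counts per library. By day 12 the log2 fold change was -5.05 ± 0.17 (adjusted p = 2.12e-18, 33.1-fold lower).

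H2-Q8 was at 8.54, 7.86, 8.79, 7.76 and 7.55 CPM at day 0, at 6.91, 7.60, 6.49, 7.53 and 6.21 CPM at day 1, and at 0.250, 0.517, 0.571, 0.727 and 0.310 CPM at day 12. Its log2 fold change at day 12 was -4.14 ± 0.15 (adjusted p = 9.90e-18), with day 12 again far below both other groups. H2-Q1, H2-Q2 and H2-Q10, all under 4 CPM, were called lower at day 12 with log2 fold changes of -1.36, -3.08 and -0.99. H2-Q2 had no count in 1 day 12 library, and the call on H2-Q1 was lost without the first day 0 library, at -0.96. The H2-Q1 call was also lost when scaled to Hprt and Tbp (-1.10) and in the larger library series (-1.30).

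Reads of near-identical H2 genes can be assigned to the wrong member. Of all 50-base stretches in the GENCODE M21 transcripts, 36.4% for H2-Q4, 35% for H2-Q6, 53.5% for H2-T22 and 50.4% for H2-T10 also occur in another gene, against 12.8% for H2-D1, 9.63% for H2-K1 and 0 for B2m. Part of this is shared with genes of other names that overlap them, with 26.5% for A930015D03Rik in H2-T22, 24.9% for BC023719 in H2-T10 and 15.3% for Gm11131 in H2-Q4. Between H2-T22 and H2-T10, 31.2% of the H2-T22 stretches were shared at 50 bases and 6.92% at 100 bases. Rows of a family were therefore also summed and tested as 1 gene. The H2-K and H2-D sum was 2768 ± 138, 3248 ± 76.5 and 682 ± 41.6 CPM at days 0, 1 and 12, or -2.02 ± 0.039 on the log2 scale after 12 days (adjusted p = 6.95e-23). The H2-Q sum was 144 ± 5.09, 222 ± 7.65 and 20.5 ± 2.55 CPM, called higher at day 1 (0.62 ± 0.049, adjusted p = 4.05e-11) and lower at day 12 (-2.82 ± 0.054, adjusted p = 6.95e-23). The day 1 call on the H2-Q sum was lost when libraries were scaled to Hprt and Tbp, at 0.55. The H2-T sum was 253 ± 14.7, 250 ± 6.98 and 64.7 ± 6.93 CPM with -1.97 at day 12, and the H2-M sum 21.3 ± 0.529, 25.3 ± 1.32 and 9.02 ± 0.906 CPM with -1.24. A sum does not depend on how reads were split among its own rows, but it does on reads shared between families, as H2-D1 shares 5.87% of its 50-base stretches with H2-Q1 and H2-K1 5.18% with H2-Q10. The part of such sharing was not tested.

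Among the H2-T genes, H2-T23, which encodes Qa-1, the ligand of inhibitory receptors on natural killer cells, took 96.8% of the family's counts at day 0. It stood at 253, 224, 239, 261 and 249 CPM at day 0, at 240, 235, 252, 239 and 247 CPM at day 1, and at 54.9, 51.4, 64.4, 64.2 and 65.7 CPM at day 12. Days 0 and 1 overlapped fully, and the log2 fold change at day 12 was -2.03 ± 0.054 (adjusted p = 3.13e-20).

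H2-T24 differed in timing. It was at 1.00, 1.21, 1.31, 1.14 and 1.07 CPM at day 0, already at 0.141, 0.264, 0.228, 0.321 and 0.206 CPM at day 1, and at 0.0601, 0.0631, 0.158, 0.114 and 0.207 CPM at day 12. Both cool groups lay below the controls, with log2 fold changes of -2.31 ± 0.27 (adjusted p = 3.72e-08) and -3.22 ± 0.29 (adjusted p = 3.63e-10). The further difference of day 12 from day 1 (-0.92 ± 0.33, adjusted p = 0.0185) was lost without the fourth day 1 library (-0.78) or the first (-0.73) or the second (-0.76) of day 12. H2-T22 and H2-T10, whose products bind γδ T cell receptors, shared the most sequence and went apart at day 1, at -0.62 ± 0.11 (called lower) and 0.45 ± 0.11 (not called). At day 12, H2-T10 was called lower (-0.76) and H2-T22 was not (-0.48). The H2-T22 call at day 1 was lost without the fourth day 0 library (-0.53). That on H2-T10 at day 12 was lost when libraries were scaled by total counts (-0.57) or to Hprt and Tbp (-0.51).

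H2-M3, which presents formylated bacterial peptides, held 99.9% of H2-M counts at day 0. It stood at 21.9, 21.8, 21.0, 21.0 and 20.8 CPM at day 0, at 26.9, 26.4, 24.3, 23.9 and 24.8 CPM at day 1, and at 9.09, 7.63, 9.25, 10.1 and 8.67 CPM at day 12. No groups overlapped. H2-M3 gave 0.25 ± 0.051 on the log2 scale at day 1, under the fold limit, and -1.25 ± 0.055 at day 12 (adjusted p = 3.82e-16). H2-K2, annotated as a transcribed pseudogene, was at 1.67, 2.07, 2.40, 2.37 and 1.67 CPM, then at 1.38, 1.37, 1.36, 1.27 and 1.34 CPM, and at 0.281, 0.391, 0.364, 0.371 and 0.289 CPM at day 12. H2-K2 was called lower at both times (-0.59 ± 0.14 with an adjusted p of 0.000669, then -2.59 ± 0.17 with 6.08e-13). The day 1 call rested on a fold of 1.51 and was lost without any 1 of 3 libraries (the third and the fourth of day 0, at -0.53 each, and the fourth of day 1, at -0.57). This call was also lost with total counts (-0.57) and with library series as a covariate (-0.55).

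Of the genes that carry peptides into the endoplasmic reticulum and load them, the transporter subunits were called lower at day 12 and the tapasins were not. Tap1 stood at 125, 120, 122, 129 and 123 CPM at day 0, at 106, 110, 105, 108 and 109 CPM at day 1, and at 37.0, 37.1, 39.6, 41.2 and 38.8 CPM at day 12. Its groups did not overlap, with log2 fold changes of -0.20 ± 0.030 (not called) and -1.68 ± 0.032 (adjusted p = 4.63e-23). Tap2 stood at 134, 126, 132, 126 and 125 CPM, then at 97.1, 98.7, 94.6, 99.9 and 103 CPM, and at 65.5, 64.7, 65.1, 68.4 and 66.6 CPM at day 12. The log2 fold change of Tap2 was -0.38 ± 0.029 at day 1 (not called) and -0.96 ± 0.029 at day 12 (adjusted p = 3.17e-19). The products of Tap1 and Tap2 form 1 transporter, and the RNA of Tap1 dropped 3.20-fold while that of Tap2 dropped 1.94-fold.

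Tapbp, which encodes tapasin, stood at 379, 359, 358, 364 and 355 CPM at day 0, at 357, 361, 360, 365 and 365 CPM at day 1, and at 235, 241, 257, 264 and 248 CPM at day 12. All day 12 libraries were below all others, yet at -0.54 ± 0.029 (adjusted p = 2.25e-14) the difference was a fold of 1.46 and was not called. Other genes cover 29% of its exon bases. Tapbpl, the tapasin-related peptide editor, gave -0.09 ± 0.056 and 0.10 ± 0.055, with the groups overlapping. Erap1, the aminopeptidase that trims peptides, gave -0.24 ± 0.045 and -0.38 ± 0.045 and was not called at either time.

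The 3 immunoproteasome subunits parted from each other. Psmb9 stood at 38.4, 36.7, 34.7, 38.2 and 35.1 CPM at day 0, at 24.3, 22.9, 20.8, 22.2 and 25.2 CPM at day 1, and at 7.07, 8.12, 8.49, 8.54 and 8.40 CPM at day 12. It was called lower at both times, at -0.67 ± 0.052 (adjusted p = 3.27e-11) and -2.18 ± 0.056 (adjusted p = 1.75e-20). Psmb8 stood at 62.2, 55.4, 54.0, 62.0 and 55.1 CPM, then at 56.7, 55.5, 51.0, 55.4 and 54.7 CPM, and at 17.8, 16.9, 19.9, 18.1 and 20.9 CPM at day 12. Days 0 and 1 of Psmb8 overlapped (-0.08 ± 0.049), and day 12 was lower (-1.62 ± 0.052, adjusted p = 1.05e-18). Psmb10 stood at 17.2, 15.6, 15.2, 17.8 and 16.5 CPM, then at 13.5, 12.7, 14.9, 14.1 and 15.9 CPM, and at 16.8, 14.4, 16.1, 18.0 and 18.0 CPM at day 12. Days 0 and 12 of Psmb10 overlapped, with a log2 fold change of 0.02 ± 0.064 (adjusted p = 0.796 in edgeR).

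Each immunoproteasome subunit takes the place of a constitutive subunit in the assembled particle. Psmb8 replaces Psmb5, Psmb9 replaces Psmb6 and Psmb10 replaces Psmb7. The constitutive partners were called higher at day 1, at 0.67 ± 0.039, 0.60 ± 0.029 and 0.76 ± 0.027, and at day 12 their log2 fold changes of 0.50, 0.31 and 0.44 were not called. Per kilobase of exon, Psmb8 gave 21% ± 0.623 (SD, n = 5) of its pair at day 0, 13.7% ± 0.687 at day 1 and 5.74% ± 0.379 at day 12. Psmb9 gave 19.4% ± 0.792, 9.07% ± 0.56 and 4.12% ± 0.239. Psmb10 gave 27.5% ± 0.892, then 16.3% ± 1.2, and 22% ± 1.4 at day 12. All 9 comparisons between groups were without overlap, each with p = 0.00794 in an exact permutation test (adjusted p = 0.0085). The share of RNA from the immunoproteasome forms was thus lower already at day 1 for all 3 pairs, and continued lower for Psmb8 and Psmb9 but not for Psmb10. Over 10% of the exon bases of Psmb5, Psmb7 and Psmb8 lie in other genes, and RNA shares are not shares of protein.

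**Figure D3:**
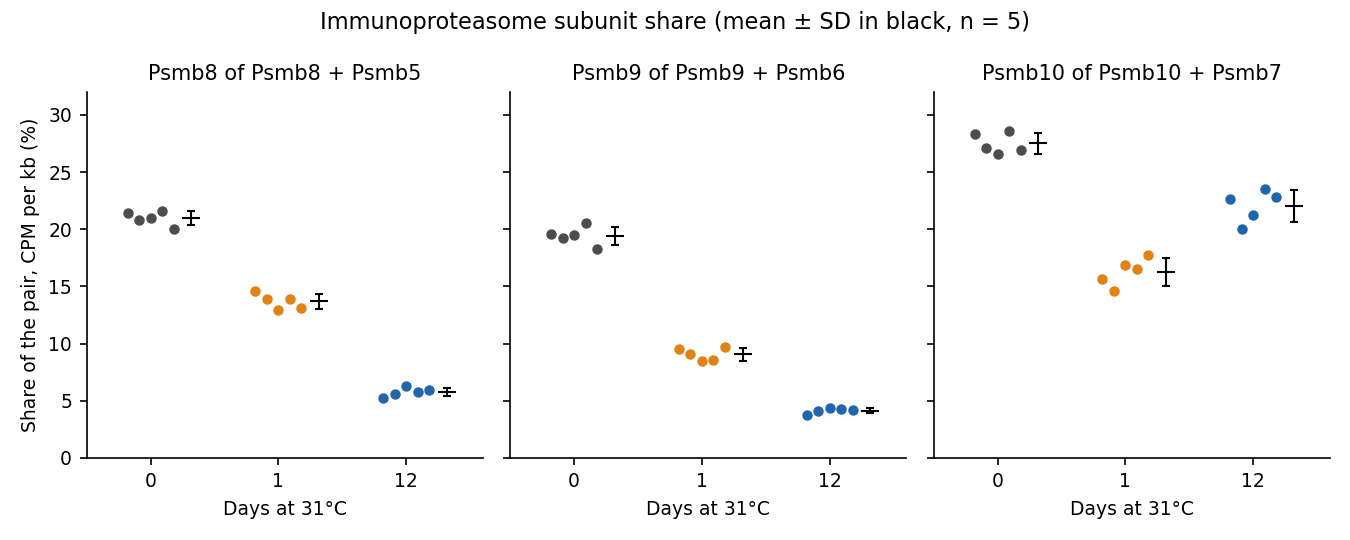
Share (%) of each immunoproteasome subunit in the summed RNA of itself and its constitutive partner, in CPM per kilobase of exon, for each library by days at 31°C, with mean and SD (n = 5) in black. Psmb8 and Psmb9 step down at each time, from 21% to 5.74% and from 19.4% to 4.12%, while Psmb10 dips to 16.3% and returns to 22%.

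Nlrc5, the transactivator of class I genes, stood at 26.7, 27.3, 25.7, 26.6 and 25.4 CPM at day 0, at 18.8, 19.5, 19.4, 18.6 and 18.2 CPM at day 1, and at 7.78, 8.49, 8.84, 11 and 9.59 CPM at day 12. The groups followed that order without overlap. Nlrc5 was 1.39-fold lower after 1 day, which was not called (-0.48 ± 0.058, adjusted p = 7.61e-08), and 2.89-fold lower after 12 days (-1.53 ± 0.061, adjusted p = 6.08e-17). Ciita, its class II counterpart, had 0 to 14 counts per library and could not be tested. Of 7 factors that bind MHC promoters, Creb1 (-0.83) and Nfya (-1.34), which bind the cAMP response and CCAAT elements, were called lower at day 1. At day 12 only Nfyc was called, higher (0.80). Over all genes tested, 13.4% were called lower at day 1 and 13.0% higher at day 12. Rfx5, which binds beside Creb1 and Nfya, was at -0.51 at day 12, not called.

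Class II RNA was scarce in these cells. H2-Aa, the alpha chain, had 0 to 4 counts per library. H2-Ab1, the beta chain, stood at 2.32, 2.13, 1.55, 0.808 and 2.01 CPM at day 0, at 1.52, 0.917, 1.16, 1.31 and 0.979 CPM at day 1, and at 0.210, 0.0378, 0.328, 0.0713 and 0.217 CPM at day 12. Day 1 overlapped day 0 (-0.59 ± 0.27, adjusted p = 0.0511 in edgeR), and day 12 was below both (-3.30 ± 0.33, adjusted p = 2.94e-09, 9.88-fold lower). At day 1 H2-Ab1 was called lower when scaled to Hprt and Tbp (-0.66) and with the other filters on low counts (-0.59 and -0.61). The same held in 5 fits without single libraries (-0.59 to -0.77). The peptide exchange genes H2-DMa and H2-DMb1 were at -0.65 ± 0.14 and -0.93 ± 0.080 at day 12, both called lower. At day 1, H2-DMa lay above all controls (0.56 ± 0.13, adjusted p = 0.000745, not called), and it was called higher in the larger library series (0.73) and without 1 of 4 single libraries (0.59 to 0.63). The day 12 call on H2-DMa was lost with scaling by total counts, at -0.46, and to Hprt and Tbp, at -0.39. H2-Eb1 was called lower at day 1 (-1.86 ± 0.46, adjusted p = 0.000928), on 1 to 39 counts per library, and not at day 12 (-0.80 ± 0.41).

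Cd74, the invariant chain that guards the class II groove, was not called lower at any time. It stood at 0.468, 0.538, 0.364, 0.421 and 0.327 CPM at day 0, at 0.563, 0.208, 0.348, 0.460 and 0.294 CPM at day 1, and at 0.731, 0.568, 0.656, 0.556 and 0.517 CPM at day 12. All 3 groups overlapped, and the libraries held 15 to 73 counts. Day 12 was called higher than day 1 (0.70 ± 0.26, adjusted p = 0.0199), a call lost without the second (0.56) or the fifth (0.62) day 1 library or the first day 12 library (0.62). The same call was lost in the larger library series (0.75). The class II sum, led by H2-DMb1, was 12.0 ± 0.634, 11 ± 0.870 and 5.73 ± 0.695 CPM, with -1.06 at day 12, called lower.

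Of the 44 genes, 36 lie within 3.57 Mb of chromosome 17 (GRCm38, 33915899 to 37483552), so nearby genes can be compared. H2-K1 is at 33996017 to 34000347 on the minus strand and H2-D1 at 35262730 to 35267499 on the plus strand, while B2m is on chromosome 2 at 122147686 to 122153083. Of the 24 tested genes on chromosome 17, 19 were called lower at day 12, beside 16.2% of all genes tested. H2-Ke2, which encodes a prefoldin subunit (Pfdn6), and H2-Ke6, which encodes a steroid dehydrogenase, carry H2 names by position only. They flank H2-K2 and H2-K1, and gave 0.34 ± 0.045 and -0.58 ± 0.054 at day 12, neither called. H2-Ke6 lay just under the fold limit and was called lower with DESeq2 size factors (-0.59) and without single libraries in 4 fits, and H2-Ke2 was called higher when scaled to Hprt and Tbp (0.60). H2-Ke6 shares 86.4% of its exon bases with the readthrough gene Gm20427. Outside chromosome 17, B2m and Nlrc5 were called lower, and Psmb10, Tapbpl, Erap1 and Cd74 were not. H2-Q8, called lower, has no entry in the annotation used here.

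**Figure D4:**
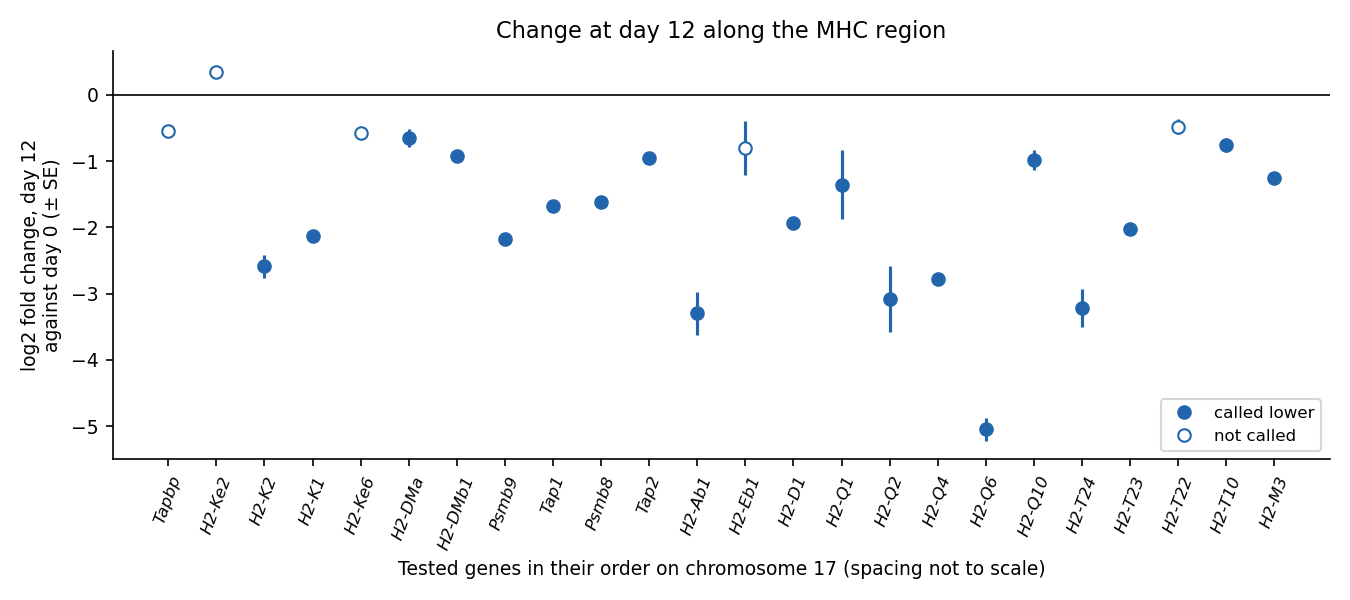
Log2 fold change at day 12 against day 0 (vertical axis, bars ± SE) for the 24 tested genes on chromosome 17 in their order along it (horizontal axis, spacing not to scale), filled where called lower. H2-Ke2 at 0.34 and H2-Ke6 at -0.58 are next to H2-K2 and H2-K1, which are at -2.59 and -2.13.

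Genes that carry the interferon signal were examined next. Of 9 tested genes of interferon gamma signalling, 2 were called lower at day 1 (13.4% of all genes) and 4 at day 12 (16.2% of all genes), and the list medians were -0.45 and -0.61. Between the cool groups 0 were called by edgeR and 0 by DESeq2, with 0 higher and 5 lower at an unadjusted p under 0.05. Irf1, which binds class I promoters, was 59.6 ± 4.56, 28.7 ± 1.51 and 27.9 ± 1.02 CPM (SD, n = 5), with log2 fold changes of -1.05 ± 0.047 (adjusted p = 1.04e-15) and -1.10 ± 0.047 (adjusted p = 2.21e-16). Day 12 of Irf1 against day 1 gave -0.04 ± 0.048 (adjusted p = 0.454 in edgeR). At day 1, H2-K1 (0.21) and H2-D1 (0.25) were above controls and B2m was at -0.06. Psmb9 (-0.67, called) and Nlrc5 (-0.48, not called) were below controls at day 1. Whether Irf1 bears on any of these genes was not tested. Irf2 (-0.67, -0.87) was called lower at both times, and Ifngr1 (-0.65) and Socs3 (-0.61) at day 12.

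Of 7 tested genes of type I interferon signalling, Stat2 (-0.90) and Irf9 (-0.83), subunits of the factor that type I interferons activate, were called lower at day 1 and again at day 12 (-0.92, -0.81). Ifnar2, a receptor subunit (-1.09), and Irf7 (-2.16) joined them at day 12. Of all genes tested, 13.4% were called lower at day 1 and 16.2% at day 12. Irf7 was 205 ± 21.0, 171 ± 9.70 and 45.7 ± 10.0 CPM. Of 8 NF-kB genes, Nfkb2 (-0.66), Nfkbie (-0.67) and Tnfaip3 (-0.84) were called lower at day 1, where 13.4% of all genes were. At day 12, 0 were called by edgeR and 0 by DESeq2, with 2 higher and 5 lower at an unadjusted p under 0.05. The gene for interferon beta, Ifnb1, had at most 17 counts in any library, and that for interferon gamma was not analysed here. Also examined were 12 helpers of class I folding and peptide supply that do not belong to the 44. Calr (calreticulin), Canx (calnexin), Hspa5 and Npepps were called lower at day 1, at -1.29, -0.67, -1.56 and -1.18, beside 13.4% of all genes. At day 12 Calr, Canx, Hspa5, Pdia3 and Lnpep were called lower, at -0.88, -0.62, -0.97, -0.80 and -0.65, beside 16.2% of all genes.

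**Figure D5:**
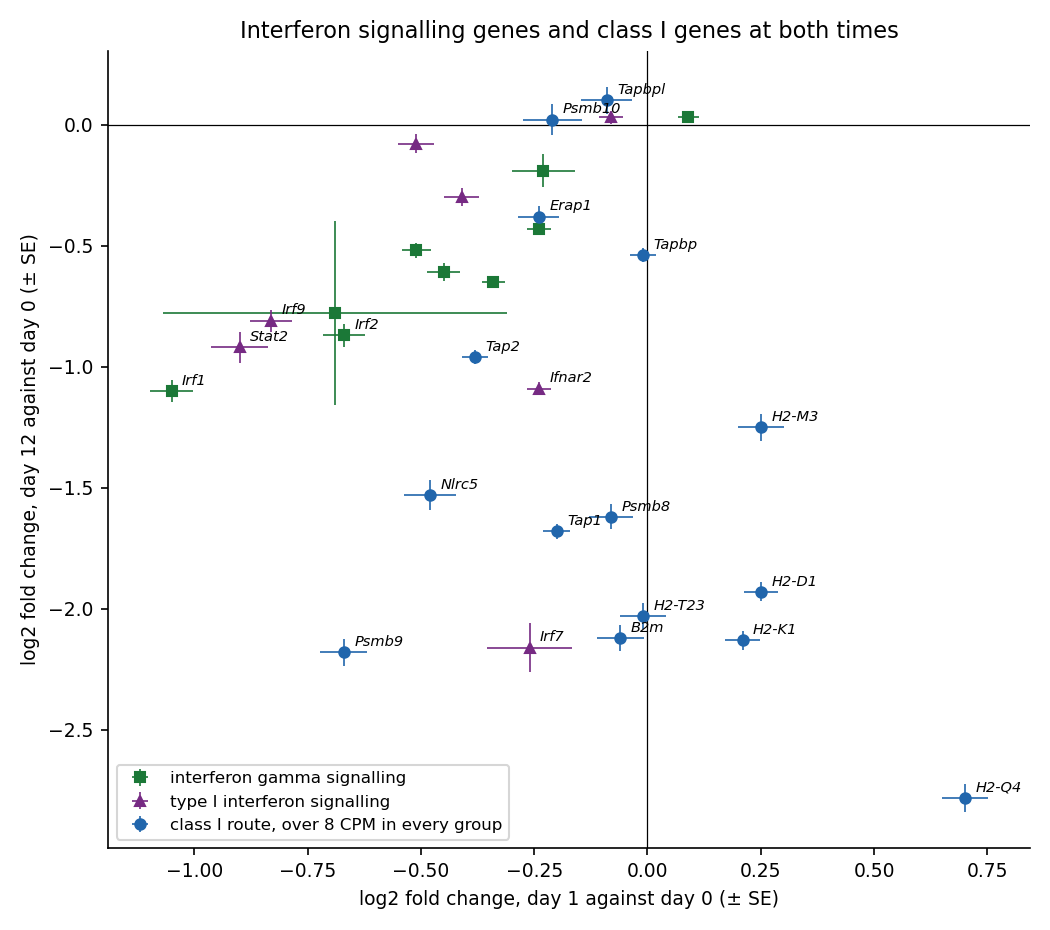
Log2 fold change at day 1 (horizontal axis) and at day 12 (vertical axis), both against the same day 0 libraries and ± SE, for the 15 class I route genes over 8 CPM on average in every group (blue circles), 9 interferon gamma signalling genes (green squares) and 7 type I genes (purple triangles). Irf1 lies at -1.05 and Psmb9 at -0.67 on the horizontal axis, and H2-K1, H2-D1 and H2-Q4 lie right of 0 and below -1.9.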

How the data were processed

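RNA-seq libraries of white adipocytes after 0 days, 1 day or 12 days at 31°C (5 each) were analysed from 1 deposited table of raw read counts per gene symbol. Per the labels and processing notes, the authors aligned reads to mm10 with TopHat2 2.0.13 and Bowtie2 2.2.1 and counted them with HTSeq. Strand setting, counting mode and treatment of reads that match several genes are not given in the sources used here, which bears on the H2 genes. A table of regularized log values and tables of the authors' own DESeq2 comparisons were not used.

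Counts were tested across all 14293 genes that passed edgeR's expression filter (count minimum 10) with edgeR 4.0.16 in R 4.3.3 (quasi-likelihood test, TMM scaling, all 15 libraries in 1 fit). Benjamini-Hochberg adjustment ran over all genes tested, and calls needed an adjusted p under 0.05 and a fold over 1.5. Standard errors were derived from each log2 fold change and its F statistic. Total counts of 64648178 to 133270973 set the precision, and the common coefficient of variation was 5.25%. Ratios within a library used exact two-sided permutation tests. The script was tested on simulated counts.

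Members and gene lists were chosen with earlier results of these data known. Values in every library are given for the classical heavy chains, B2m, Tap1, Tap2, Tapbp, the immunoproteasome subunits, Nlrc5, Cd74, H2-Ab1 and the 6 called genes over 1 CPM with the largest change at day 12. H2-T23 and H2-M3 were added after their values were seen. Of other lists, Irf1 and called genes are named, in some lists more than the 4 planned, with some genes that were not called. A gene of the interferon gamma list and a blood cell marker are not reported here and were left out of the counts and sums of those lists. Coordinates, exon lengths, overlaps and shared stretches of sequence come from GENCODE M21 on GRCm38, which matched 43 of 44 symbols, and promoters from RefSeq on GRCm38.p6. DESeq2 1.42.0, other scalings, filters, fits by library series and fits without single libraries were run as alternatives.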

Additional observations from a re-analysis of the deposited data

Results flagged for a closer look

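Of the 31 tested genes, 21 were called between day 12 and day 1 in edgeR (adjusted p from 2.16e-23 to 0.0199). A call again needed an adjusted p under 0.05 and a fold over 1.5. With the adjusted p alone, 3 genes were higher and 23 lower at day 12, with Tap2 (-0.58) and Tapbp (-0.54) among the lower. Since both changes share the day 0 libraries, their difference is that direct contrast. Among heavy chains the log2 difference was -2.35 for H2-K1, -2.18 for H2-D1, -2.00 for H2-K2, -3.48 for H2-Q4, -5.27 for H2-Q6, -3.92 for H2-Q8, -2.75 for H2-Q2, -0.81 for H2-Q10, -2.01 for H2-T23, -0.92 for H2-T24, -1.21 for H2-T10 and -1.50 for H2-M3. It was -2.06 for B2m, -1.47 for Tap1, -1.54 for Psmb8, -1.51 for Psmb9 and -1.05 for Nlrc5. The H2-T24 call was lost without any 1 of 3 libraries (-0.73 to -0.78) and when scaled to Hprt and Tbp (-0.59). That of Cd74 was lost without any 1 of 3 libraries (0.56 to 0.62) and in the larger library series (0.75). Scaling to Hprt and Tbp also lost the calls on H2-DMb1 (-0.40) and H2-Q10 (-0.48), and total counts lost that on H2-DMb1 (-0.57). In class II the difference was -2.72 for H2-Ab1, -1.21 for H2-DMa, -0.74 for H2-DMb1 and 0.70 for Cd74, the one gene of the 21 with a higher level at day 12 than at day 1.

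Single libraries stood apart from the other 4 of their group in 3 of the 93 groups of 5 examined, by the gap to the nearest library as a share of the group's range, and chance alone sets about 1 in 20 groups apart. H2-T22 was 3.82 CPM in the fourth day 0 library, with the nearest at 2.92 CPM. H2-DMb1 was 8.04 CPM in the first day 1 library, with the nearest at 7.15 CPM. Psmb9 was 7.07 CPM in the first day 12 library, with the nearest at 8.12 CPM.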

How the results depend on the processing

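Every family sum kept its call at day 12 under each alternative, and 22 to 23 genes were called against day 0 when single libraries were left out, 19 to 23 against day 1. At day 1 the count ran from 5 to 8 without single libraries and was 19 with the adjusted p alone, where the H2-K and H2-D sum (0.23) and the H2-M sum (0.25) also passed. The H2-Q sum at day 1 was no longer called when scaled to Hprt and Tbp (0.55). The H2-T sum at day 1, near 0, turned to 0.0046 with total counts and ranged from -0.05 to 0.01 without single libraries. At day 12 against day 1, total counts and then Hprt and Tbp turned Erap1 (0.03, 0.19), H2-Ke2 (0.11, 0.28) and H2-Ke6 (0.06, 0.22), and at day 1 total counts turned H2-T23 (0.01) and Tapbp (0.01). Psmb10 at day 12 was -0.01 in the larger library series. Without single libraries, Psmb10 at day 12 ranged from -0.01 to 0.07, and at day 1 H2-Q1 ranged from -0.51 to 0.15, H2-T23 from -0.04 to 0.01 and Tapbp from -0.01 to 0.01. The cause was not tested. With the replicate block, 5, 22 and 21 genes were called at day 1, day 12 and between the cool groups, H2-K2 at day 1 (-0.58) being lost. Same-numbered libraries did not deviate together (15 correlations, -0.0255 to 0.0436), so the numbers were not read as pairs. Genes under 1 CPM rest on few counts, and H2-Q1, H2-Q2, H2-Eb1 and Cd74 are limited by depth.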

Other observations

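Class I-like proteins are also encoded under names other than H2. Of 11 such genes tested, 1 was called lower at day 12 against day 0, Procr, the endothelial protein C receptor (-0.87), and 3 were called higher, the NKG2D ligands Raet1a (0.73), Raet1e (0.64) and Ulbp1 (0.87), beside 16.2% lower and 13.0% higher over all genes. The levels of these ligands were low, with Ulbp1 at 2.48, 2.78 and 4.57 CPM on average at days 0, 1 and 12. Hfe, which regulates iron uptake and binds B2m, was 88.1, 134 and 93.4 CPM and was called higher at day 1 only (0.60). The MHC-related Mr1 (-0.49) and Cd1d1 (-0.11) and the neonatal Fc receptor Fcgrt (-0.39) were not called at day 12. The list median was -0.39.

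Of 6 tested ligands that modulate T cells, Cd274, which encodes PD-L1, was called lower at day 1 (-0.72) and at day 12 (-1.26), with mean levels of 20.3 and 12.4 CPM at days 0 and 1. Icam1, an adhesion molecule (-1.28), and Cd80 (-0.91) were called lower at day 12. Cd276 was called higher at day 12 (0.77). Vtcn1, an inhibitory ligand of the same family, was called higher at both times (2.17 and 3.19), from a mean of 0.0779 CPM at day 0 to 0.766 CPM at day 12. Of 5 tested enzymes of the class II route, Ctsd, a lysosomal protease, was called lower at day 12 (-0.79). Over all genes tested, 13.4% were called lower and 7.71% higher at day 1, and 16.2% lower and 13.0% higher at day 12.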
